A study of Mus musculus with 18 samples.

Results

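The response of KO dendritic cells to lipopolysaccharide (LPS) was read from 9 of the 18 RNA-seq libraries of the series, 5 of KO cells treated with LPS and 4 of KO control cells. Every gene that passed a filter on low counts was compared, which was 11989 of the 16614 genes in the deposited table. The cells were mouse bone marrow-derived dendritic cells, grown from marrow for 7 to 10 days with 100 ng/ml of the growth factor Flt3L and 20 ng/ml of GM-CSF. They were then enriched for the chemokine receptor XCR1, either by flow sorting of CD11c+ Xcr1+ cells or with an antibody to XCR1 and magnetic beads, and which of these each library had is not stated. Both KO groups share the KO label and the described culture, and their labels differ in LPS alone, while whether they had the same enrichment is not known. The labels give the genotype as KO or WT, and do not name the deleted gene, its allele or any Cre driver, nor the strain, age or sex of the mice. They do not give the dose or duration of LPS or say what the control received. The 9 WT libraries (5 LPS, 4 control), labelled in the same way, served for the comparison of the response between genotypes. They also entered the filter, the scaling between libraries and the shared estimate of spread. With the KO libraries alone, 11718 genes passed the filter. Nothing in the labels says that replicates came from separate mice or cultures, so p-values measure the spread between these libraries, which may be technical. In bulk RNA, fewer cells of a type and less RNA per cell cannot be told apart.

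LPS, a component of the outer membrane of Gram-negative bacteria, is bound by Toll-like receptor 4 (TLR4) with its partner MD-2. The adaptors MyD88 and TRIF pass the signal to NF-kB, to MAP kinases with the AP-1 factors, and to IRF3, which together start cytokine genes and interferon beta. Secreted interferon then acts back on the cells through its receptor. Type 1 conventional dendritic cells (cDC1), which carry XCR1, are known for presenting captured antigen to CD8 T cells and for making interleukin-12, and a dendritic cell that matures raises co-stimulatory molecules and the homing receptor CCR7. STAT3 and STAT5, which the title of the series names, are activated by cytokine receptors and are both held in check by SOCS proteins.

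The KO control libraries held 26.9 to 27.4 M estimated counts (n = 4) and the KO LPS libraries 25.6 to 26.3 M (n = 5). Pearson correlations of log2 CPM (counts scaled to a fixed library total) between replicates were 0.9946 to 0.9967 in KO control and 0.9913 to 0.995 in KO LPS. LPS libraries were more concentrated, each with more of its counts in its 50 most abundant genes than the 18.3 to 19.0% of the controls, and the TMM scaling factors averaged 0.768 with LPS and 1.32 in control. Some libraries lay closer to an average of others than replicates lay to each other. The distance used was the chi-square per degree of freedom over 11093 genes, which is near 1 when counts differ by counting error alone. KO control replicate 3 lay at 1.5 from the equal average of replicates 1 and 2, while pairs in its group lay 2.86 to 21.3 apart. KO LPS replicate 4 lay at 2.39 from the average of replicates 1 and 3, and KO LPS replicate 5 at 3.26 from the average of the other four, while pairs in that group lay 3.77 to 31.9 apart. WT LPS replicates 4 and 5 also met this criterion, which makes 5 libraries in all. No label calls a library a pool, and the origin of this pattern was not tested. If such libraries are not independent, the error is understated, so results are also given without all 5 of them, from 13 libraries. KO control replicate 4 stood apart from the other controls, at 19.3 to 21.3.

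LPS moved most of the measured transcriptome of the KO cells. Of 11989 genes tested, 10338 (86.2%) were called at an edgeR adjusted p under 0.05, with 4794 (40.0%) higher and 5544 (46.2%) lower after LPS. Changes of at least 2-fold were called for 2402 genes upward (20.0%) and 3146 downward (26.2%). With TMM scaling the upward side had the longer tail. At 8-fold or more there were 686 genes higher and 512 lower, and at 32-fold or more 248 and 61. The median log2 fold change was -0.10, with the 5th and 95th percentiles at -2.83 and 3.22. For 4532 genes (37.8%) every LPS library lay above every control library, and for 5275 (44.0%) every LPS library lay below. A set of 88 genes went from under 1 CPM in KO control to at least 10 CPM in KO LPS, and 46 genes went the other way. Without the 5 libraries near an average of others, 9730 genes were called, 4568 higher and 5162 lower.

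All values in CPM and all fold changes are scaled by TMM, which assumes that most genes do not change. When libraries were scaled by their total counts instead, every fold change shifted by a median of -0.78 on the log2 scale and the split became 2416 higher and 8437 lower. Higher genes made up 46.4% of all calls with TMM, 22.3% with total counts and 49.7% with the size factors of DESeq2. Rises smaller than this shift thus turn with the scaling, while falls become larger. At 2-fold or more, total counts gave 1324 genes higher and 5540 lower. Steps of 8-fold and 32-fold were counted with TMM alone, so the longer upward tail is not shown for total counts. Genes called "within the shift" are such small rises.

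**Figure D1:**
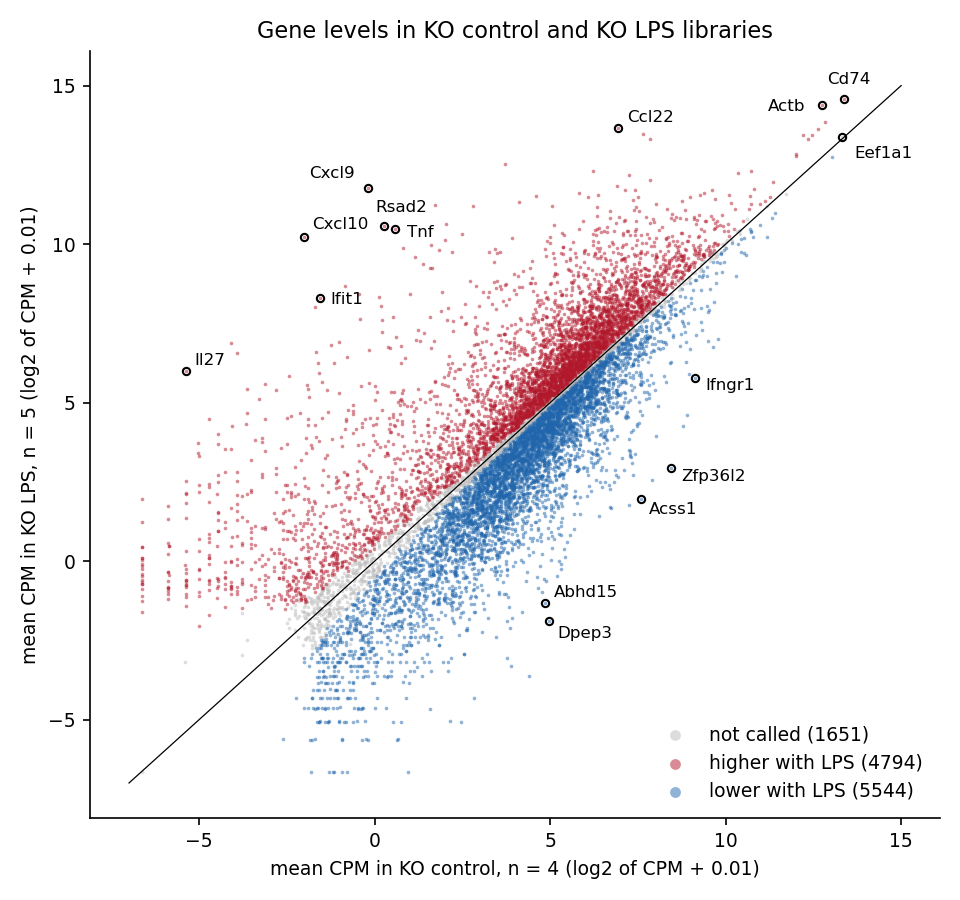
Mean level of each of 11989 tested genes in KO control (x axis) and KO LPS (y axis) libraries, both as log2 of mean CPM plus 0.01, with genes called higher and lower in colour and the diagonal marking equal levels. Cxcl10, Cxcl9 and Tnf lie far above the diagonal, and Dpep3, Acss1 and Zfp36l2 far below it.

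The strongest rises among genes with measurable control levels were chemokines, interferon-induced genes and cytokines, with predicted genes and pseudogenes left out. Cxcl10 (gene ID 15945), a ligand of the receptor CXCR3 on activated T cells, stood at 0.254, 0.0843, 0.365 and 0.248 CPM in the 4 control libraries and at 1228, 1156, 1189, 1226 and 1150 CPM in the 5 LPS libraries. Its log2 fold change was 12.26 ± 0.24 (SE; edgeR adjusted p = 2.2e-19). Cxcl9, which binds the same receptor, stood at 0.704, 0.45, 1.32 and 0.964 CPM in control and 3170, 4047, 3452, 3387 and 3435 CPM with LPS (11.98 ± 0.29 on the log2 scale). Both genes were near silent in every control library and high in every LPS library. Tnf, which encodes the inflammatory cytokine TNF, went from 1.32, 1.26, 1.63 and 1.68 CPM to 1516, 1486, 1329, 1450 and 1419 CPM (9.93 ± 0.18, adjusted p = 6.8e-20). Rsad2, which encodes the antiviral enzyme viperin, went from 1.18, 0.955, 1.68 and 0.936 CPM to 1595, 1515, 1280, 1543 and 1599 CPM (10.30 ± 0.27). Replicate 3 was the lowest LPS library for Rsad2 and still lay far above every control. The log2 fold changes of the other genes in this set were 9.90 for Ifit1, an interferon-induced RNA-binding protein, 9.72 for the serpin Serpina3g, 9.55 for the TNF family ligand Tnfsf15 and 9.53 for Oasl1, a relative of the oligoadenylate synthetases. Ifit1, Oasl1 and Serpina3g belong to families with close copies, and how shared reads were counted is not stated, so their values are less certain.

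The promoters of 4 of these genes are shown because they hold motifs of the factors that the TLR4 pathway is known to use. Each sequence is the 250 bases before the RefSeq start of the gene (build GRCm38.p6), written 5′ to 3′ on the strand of the gene, with motif matches in capitals. The motifs searched, on both strands, were the ISRE core, which is GAAA, any 2 bases and GAAA (bound by interferon regulatory factors), the GAS core TTCNNNGAA (bound by STAT dimers), the AP-1 site TGANTCA and the kappaB consensus. Cxcl10 (chr5:92348890-92349139, minus strand) holds an ISRE core whose first base is at -213 from the start, kappaB matches at -159, -104 and -103, the last of which overlap, and an AP-1 site at -74. Rsad2 (chr12:26456453-26456702, minus strand) holds an ISRE core at -120 and an AP-1 site at -87. Ifit1 (chr19:34640639-34640888, plus strand) holds ISRE cores at -104 and -85. Serpina3g (chr12:104235897-104236146, plus strand) holds a kappaB match at -85 and a GAS core at -33.
Cxcl10: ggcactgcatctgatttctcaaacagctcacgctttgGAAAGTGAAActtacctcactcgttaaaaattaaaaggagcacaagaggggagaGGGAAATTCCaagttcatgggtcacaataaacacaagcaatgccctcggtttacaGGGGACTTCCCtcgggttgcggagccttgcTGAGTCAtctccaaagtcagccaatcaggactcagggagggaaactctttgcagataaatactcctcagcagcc
Rsad2: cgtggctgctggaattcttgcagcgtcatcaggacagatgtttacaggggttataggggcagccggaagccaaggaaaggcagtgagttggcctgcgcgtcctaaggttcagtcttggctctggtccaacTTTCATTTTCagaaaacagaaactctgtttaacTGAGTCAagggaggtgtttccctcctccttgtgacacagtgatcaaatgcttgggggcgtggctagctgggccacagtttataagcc
Ifit1: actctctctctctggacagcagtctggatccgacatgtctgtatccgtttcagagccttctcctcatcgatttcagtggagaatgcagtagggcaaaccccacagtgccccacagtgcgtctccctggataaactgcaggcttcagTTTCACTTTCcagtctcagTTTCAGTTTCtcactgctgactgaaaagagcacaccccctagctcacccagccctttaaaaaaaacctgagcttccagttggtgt
Serpina3g: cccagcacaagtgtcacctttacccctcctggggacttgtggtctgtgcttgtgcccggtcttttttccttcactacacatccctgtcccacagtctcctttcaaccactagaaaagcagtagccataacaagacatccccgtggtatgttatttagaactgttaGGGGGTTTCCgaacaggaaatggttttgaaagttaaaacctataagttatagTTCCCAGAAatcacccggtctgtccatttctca
Of the 11989 tested genes, 9641 had such a promoter. The ISRE core stood in 2.97% of these, in 18.0% of the 100 genes with the highest fold changes and in 2.0% of the 100 with the lowest. The shares for the kappaB consensus were 8.68%, 19.0% and 5.0%, for the GAS core 6.01%, 15.0% and 1.0%, and for the AP-1 site 4.3%, 12.0% and 6.0%, in the same order. Oasl1, whose sequence is not shown, holds overlapping kappaB matches at -14 and -13. None of the 4 motifs was found in this window of Cxcl9, Tnf, Il12b, Tnfsf15, Ccl22 or Ifi44, nor in that of Dpep3, which fell. A match describes the letters of the window, and binding was not measured.

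Some response genes had so few counts in control that a fitted fold change is no measure of size. Il27, the p28 subunit of interleukin-27, had 2 counts over the 4 control libraries and 6350 over the 5 LPS libraries, at 55.5, 73.4, 56.6, 60.2 and 71.9 CPM. Its ratio of CPM was 4551, with a 95% counting interval of 1259 to 37587. The ratios were 629 (215 to 3053) for Ch25h, which makes the oxysterol 25-hydroxycholesterol, 508 (173 to 2467) for Nos2, the inducible nitric oxide synthase, 473 (161 to 2295) for the neutrophil-attracting chemokine Cxcl2 and 416 (115 to 3446) for its relative Cxcl1. These intervals cover counting error only. Il12a, the p35 subunit of interleukin-12, had no count in any control library and 234 counts with LPS. Against a floor of 3 counts over the control group, it was at least 112-fold higher, a bound that rests on the floor and not on a counting interval. On the same floor, Cxcl3 was at least 186-fold, Ccl12 at least 50.2-fold, Ifnb1, which encodes interferon beta, at least 35.4-fold and Il23a, the p19 subunit of interleukin-23, at least 28.2-fold higher. Ifnb1 reached a mean of 0.743 CPM with LPS, a low level.

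The strongest falls were in enzymes, surface proteins and regulators of messenger RNA. Zfp36l2 (gene ID 12193), which binds AU-rich elements and promotes decay of the bound message, stood at 347, 348, 335 and 357 CPM in control and at 7.32, 8.21, 6.42, 7.22 and 8.82 CPM with LPS (-5.51 ± 0.08 on the log2 scale, edgeR adjusted p = 4.9e-21). Its relative Zfp36l1 went the opposite way, from 173, 182, 170 and 177 CPM to 2386, 2141, 2205, 2443 and 2402 CPM (3.72 ± 0.07). The groups did not overlap for either paralog. Acss1, the mitochondrial acetyl-CoA synthetase, stood at 176, 211, 197 and 179 CPM in control and 3.64, 5, 3.71, 3.16 and 3.76 CPM with LPS (-5.63 ± 0.12). The dipeptidase gene Dpep3 stood at 29.6, 32.2, 31.5 and 32.2 CPM in control and 0.154, 0.198, 0.296, 0.301 and 0.351 CPM with LPS (-6.89 ± 0.20). Both genes fell in every LPS library. Abhd15 (-6.20), Mfng, a glycosyltransferase that modifies Notch (-5.76), Susd3 (-5.67), the lysosomal sulfatase Sgsh (-5.56) and Fam78a (-5.53) completed the 8 largest falls on the log2 scale among called genes at 20 CPM or more in control, with at least 20 counts over the LPS libraries and no overlap. Predicted genes and pseudogenes were left out here too.

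The most abundant messages among the ranked genes were those of an antigen-presenting cell in both conditions. Mitochondrially encoded genes, predicted genes and pseudogenes were left out of this ranking, which covers tested genes. In TPM, a transcript level per length with a fixed total, which allows genes of different length to be compared, the 8 highest in KO LPS were Tmsb4x (thymosin beta 4, which binds actin) at 32190, Cd74 (the invariant chain) at 30663, Cst3 (cystatin C) at 26746, H2-Ab1 at 19606, H2-Aa at 18282, Actb at 15792, Ccl22 at 10076 and H2-Eb1 at 9644. Ccl22 was the chemokine among them. It encodes a ligand of the receptor CCR4 and stood at 142, 108, 127 and 116 CPM in control and 17259, 9347, 10525, 14355 and 12802 CPM with LPS (6.71 ± 0.25 on the log2 scale, edgeR adjusted p = 2e-15). LPS replicate 1 was the highest and replicate 2 the lowest, so its LPS level varied by more than that of Cd74, which spanned 23678 to 25403 CPM. In KO control, Eef1a1 (12788 TPM), a translation factor, and the ribosomal gene Rpl23a (8943 TPM) held the places that Ccl22 and H2-Eb1 held with LPS. Neither was called between conditions (log2 fold changes 0.06 and 0.10 with TMM), and with total-count scaling both turned to -0.72 and -0.68.

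The genes of the known response were grouped in 20 lists by role. Since 86.2% of all genes were called, the direction and size within a list say more than its number of calls, and the median of all tested genes (-0.10) stands beside each list's median. Listed genes with at most 3 counts over the KO controls passed the filter through other libraries. Such genes could hardly be called lower, so their direction was largely fixed beforehand.

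**Figure D2:**
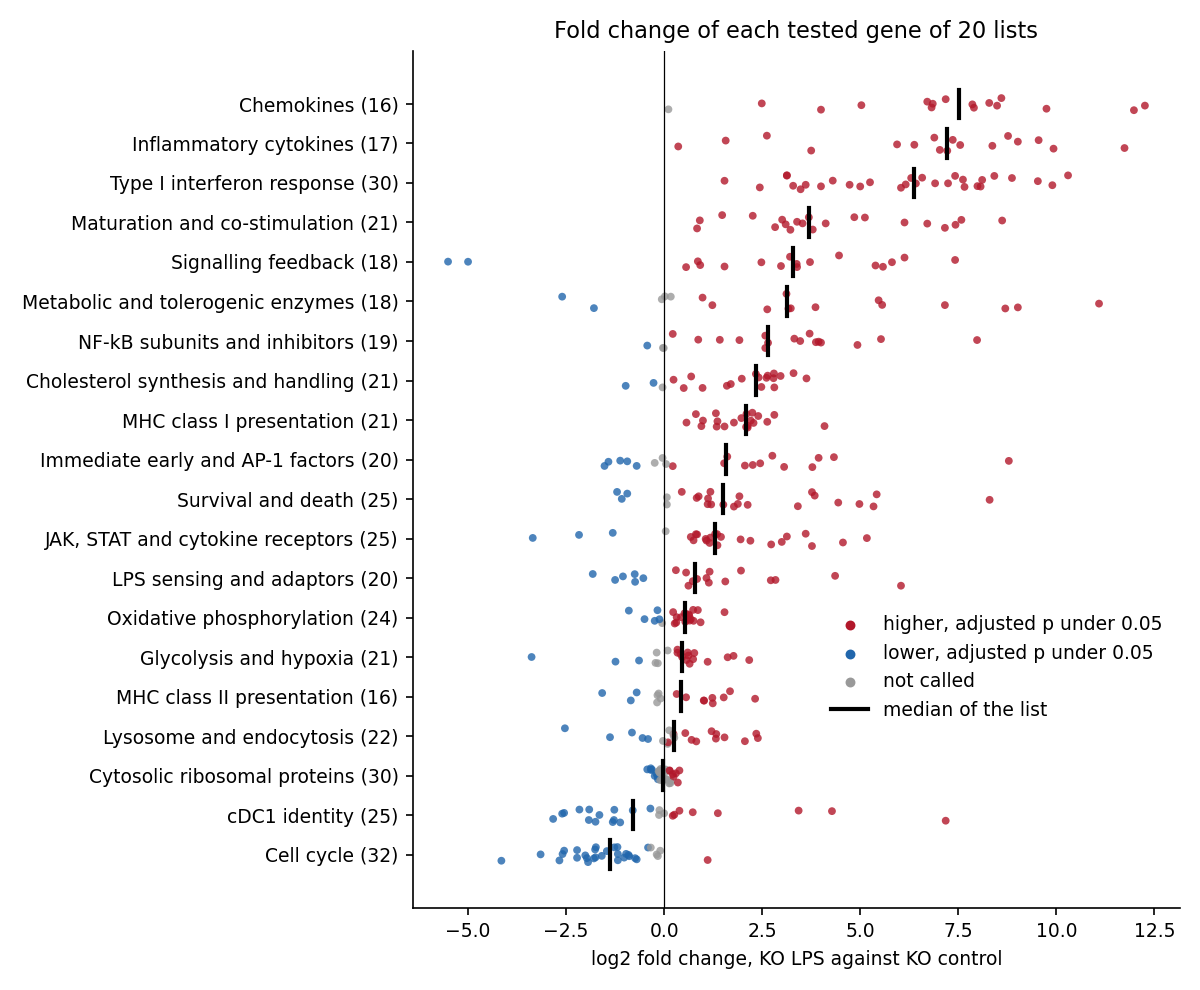
Log2 fold change, KO LPS against KO control (x axis), of every tested gene of 20 lists (rows, number of genes in brackets), coloured by call, with the median of each list as a bar. Chemokines (median 7.52), cytokines (7.22) and the interferon response (6.36) lie farthest to the right, and cDC1 identity (-0.80) and cell cycle (-1.37) to the left. With total-count scaling all points move left by about 0.78.

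Genes of LPS sensing moved in both directions, with the receptor lower and several partners higher. Tlr4 stood at 11.7, 12.3, 13.1 and 11.7 CPM in control and 3.12, 4.11, 3.31, 2.91 and 3.81 CPM with LPS (-1.82 ± 0.12 on the log2 scale, edgeR adjusted p = 2.1e-11). Cd14, which hands LPS to the receptor, rose from a mean of 1.63 to 33.6 CPM (4.36 ± 0.31), and Ly96, which encodes MD-2, from 0.67 to 4.46 CPM (2.72 ± 0.27). The receptor and its partner thus moved in opposite directions at low levels. The adaptor Myd88 rose from 64.8, 68.2, 66.5 and 65.9 CPM to 493, 462, 464, 490 and 474 CPM (2.84 ± 0.04), while the TIR adaptor Tirap fell by 1.25 and the kinase Irak4 by 0.75 on the log2 scale. The kinase gene Ikbke, which phosphorylates interferon regulatory factors, rose from a mean of 1.68 to 111 CPM (6.04 ± 0.27), and the transcription factor Irf3, on which it acts, fell by 0.74. Of 20 tested members 14 rose and 6 fell (median 0.78), and with total-count scaling 9 rose.

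NF-kB genes rose broadly, both the subunits and their inhibitors. Among subunits, Rel went from a mean of 92.8 to 1356 CPM (3.87 ± 0.10 on the log2 scale), Relb from 45.8 to 598 CPM (3.71 ± 0.12) and Nfkb2 from 84.9 to 942 CPM (3.47 ± 0.08), while Rela rose least (1.42 ± 0.04). Among inhibitors and modulators, Nfkbiz, a nuclear co-regulator, stood at 3.27, 3.71, 3.84 and 3.31 CPM in control and 1122, 794, 746, 928 and 878 CPM with LPS (7.98 ± 0.20, edgeR adjusted p = 6.8e-18). The inhibitors Nfkbia (3.94), Bcl3 (5.53) and the deubiquitinase Tnfaip3, known as A20 (4.93), rose as well. Cyld, another deubiquitinase that restrains NF-kB, fell by 0.43, and the kinase subunits Ikbkb (-0.03) and Ikbkg (-0.01) were not called. In all 16 of 19 members rose and 1 fell, with a median of 2.65.

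Immediate early and AP-1 genes were split. Nr4a3, an orphan nuclear receptor, stood at 13.4, 14, 14.6 and 10.8 CPM in control and 6594, 5376, 5113, 6144 and 6047 CPM with LPS (8.79 ± 0.18 on the log2 scale, edgeR adjusted p = 5e-19). Its relatives Nr4a1 and Nr4a2 had log2 fold changes of 0.22 and 0.05, and Nr4a2 was not called. Atf3 (4.33), Batf (3.94) and Junb (2.45) rose, Jun (-0.04) and Egr1 (-0.24) were not called, and Fosl2 (-1.52), Fosb (-1.42) and Batf3 (-1.12) fell. Batf3 is known as a factor required for cDC1 development. Of 20 members 12 rose and 5 fell (median 1.57). The small rise of Nr4a1 is within the shift of -0.78 between scalings, so its direction depends on the scaling.

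Feedback inhibitors of the same pathways rose, with exceptions among paralogs. Socs3, an inhibitor of STAT3-activating receptors, stood at 1.38, 1.29, 1.15 and 0.771 CPM in control and 236, 189, 166, 197 and 197 CPM with LPS (7.42 ± 0.21 on the log2 scale). Cish, an inhibitor that STAT5 is known to induce, went from 0.225, 0.281, 0.252 and 0.468 CPM to 19.1, 10.7, 13.9, 16.6 and 14.2 CPM (5.58 ± 0.27), and Socs1 and Socs2 rose by 3.21 and 3.39. None of these groups overlapped. Among MAP kinase phosphatases, Dusp2 (6.13), Dusp4 (5.39) and Dusp5 (4.46) rose, and Dusp6, which acts on ERK, fell from a mean of 32.4 to 1.01 CPM (-5.00 ± 0.16). Of 18 members 16 rose, and Dusp6 and Zfp36l2 were the ones that fell (median 3.29).

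Every tested cytokine gene rose, 17 of 17, with a median of 7.22, or 6.38 when genes with at most 3 counts over the controls are set to 3 counts. Il33, Csf2 and Csf3 were below the filter. Among the 17, Il12a, Il23a and Ifnb1 had no count in KO control and could not fall. Il10 and Il27 had 1 and 2 counts there and could hardly be called lower. Il12b, which encodes the p40 subunit shared by interleukins 12 and 23, stood at 16, 17.5, 18.6 and 17.4 CPM in control and 3420, 2155, 1986, 2868 and 2556 CPM with LPS (7.22 ± 0.30 on the log2 scale, edgeR adjusted p = 8.8e-15). The groups lay more than 100-fold apart without overlap. Il1b rose from a mean of 3.05 to 1010 CPM (8.37 ± 0.38), Il6 from 0.104 to 47.8 CPM (8.77 ± 0.47) and Il15 from 6.75 to 91.1 CPM (3.75 ± 0.19). The anti-inflammatory cytokine Il10 was detected at low levels, with 1 count over the controls and 136 over the LPS libraries (0.84 to 2.3 CPM, ratio 195, 95% counting interval 34.4 to 7756). Tgfb1 had the smallest rise (0.36 ± 0.04), which turned to -0.42 with total-count scaling.

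Chemokine messages took a far larger share of the transcriptome with LPS. The summed TPM of the listed chemokines went from 867 ± 22.3 (SD, n = 4) to 18154 ± 2504 (n = 5). Of 16 tested members 15 rose, with a median log2 fold change of 7.52 (7.02 with such genes set to 3 counts), and Ccl6 was not called (0.11 ± 0.22, turning to -0.67 with total-count scaling). Ccl17, another ligand of CCR4, rose from a mean of 1.42 to 207 CPM (7.18 ± 0.31), Ccl3 from 0.314 to 76.3 CPM (7.90), and Cxcl16, a transmembrane chemokine, from 78.4 to 1255 CPM (4.00 ± 0.07). Ccl5, which attracts T cells, rose less, from 69.5 to 390 CPM (2.49 ± 0.28). Ccl20, Ccl24 and Cxcl5 were below the filter, and Cxcl11 was not analysed here. Cxcl3 and Ccl12 had no count in KO control and could not fall. Markers of monocytes and macrophages, cells that can make many of these chemokines, summed to 4724 to 5224 TPM in KO control and 2387 to 3923 TPM in KO LPS. Single markers moved differently from that sum, since 10 of 15 tested rose, among them Marco (3.71), Vcan (3.56) and Fcgr1 (3.32), and 4 fell (median 0.70). The mean log2 CPM of these markers was 3.95 to 4.36 in control and 4.67 to 5.31 with LPS, and their part in the chemokine rise was not tested.

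All 30 tested interferon-response genes rose by at least 2-fold, and their summed TPM went from 827 ± 88.9 (SD, n = 4) to 16067 ± 778 (n = 5). Irf7, the regulator that amplifies interferon production, stood at 31.5, 18.2, 24.6 and 22.8 CPM in control and 2908, 3216, 2756, 2833 and 2910 CPM with LPS (6.91 ± 0.18 on the log2 scale, edgeR adjusted p = 9.4e-18). Isg15, a ubiquitin-like modifier, rose from a mean of 4.01 to 1110 CPM (8.11 ± 0.23), Ifit2 from 6.91 to 2364 CPM (8.42 ± 0.21) and the RNA sensor Ifih1 from 10.8 to 928 CPM (6.42 ± 0.17). The signalling components rose less than these targets. Stat2 rose by 3.13 ± 0.06 and Irf9, the lowest of the list, by 1.54 ± 0.05. The median was 6.36. Mx1 and Mx2 were not analysed here.

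Maturation genes rose without exception, 21 of 21 tested (median 3.69), with Slamf1 below the filter. Among them, Cd70 had 2 counts over the KO controls and could hardly be called lower. Cd40, the receptor through which helper T cells license dendritic cells, stood at 4.56, 2.95, 4.21 and 4.54 CPM in control and 1854, 1610, 1367, 1626 and 1557 CPM with LPS (8.62 ± 0.19 on the log2 scale, edgeR adjusted p = 1.2e-18). The ligands of CD28 rose, Cd80 from a mean of 2.95 to 208 CPM (6.13 ± 0.15) and Cd86 from 110 to 1033 CPM (3.22 ± 0.08). So did the maturation marker Cd83 (80.4 to 2324 CPM, 4.85 ± 0.12), the homing receptor Ccr7 (97.6 to 1347 CPM, 3.79 ± 0.29) and the checkpoint ligand Cd274, known as PD-L1 (11.9 to 414 CPM, 5.12 ± 0.28). Stat4 had the smallest rise of the list (0.84 ± 0.26), and it was not called with total-count scaling (0.06).

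Antigen presentation by MHC class I rose as a whole, while class II genes divided. All 21 class I genes rose (median 2.09), and their summed TPM went from 9328 ± 156 (SD, n = 4) to 20423 ± 304 (n = 5). Nlrc5, the transactivator of class I genes, rose most, from 79.6, 79.9, 79 and 59.2 CPM to 1359, 1262, 1184, 1228 and 1302 CPM (4.09 ± 0.12 on the log2 scale). H2-D1 rose by 2.10 ± 0.06, the peptide transporter Tap1 by 2.40 ± 0.07 and the trimming peptidase Erap1 least, by 0.57 ± 0.05, which turned to -0.22 with total-count scaling. Among class II genes, the chains H2-Aa (1.02 ± 0.06), H2-Ab1 (1.01 ± 0.06), H2-Eb1 (1.24 ± 0.07) and Cd74 (1.23 ± 0.06) rose. The peptide editor genes H2-DMa (-0.85 ± 0.05) and H2-DMb1 (-0.70 ± 0.07) fell. Marchf1, a ubiquitin ligase that removes class II and CD86 from the surface, fell from 187, 181, 187 and 193 CPM to 54.7, 71.7, 63.5, 60.8 and 62.8 CPM (-1.58 ± 0.07). Of 16 class II members 9 rose, 3 fell and 4 were not called (median 0.44). With total-count scaling 9 fell, with the libraries of KO alone 5 fell, and without WT LPS replicate 2 the number was 6.

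**Figure D3:**
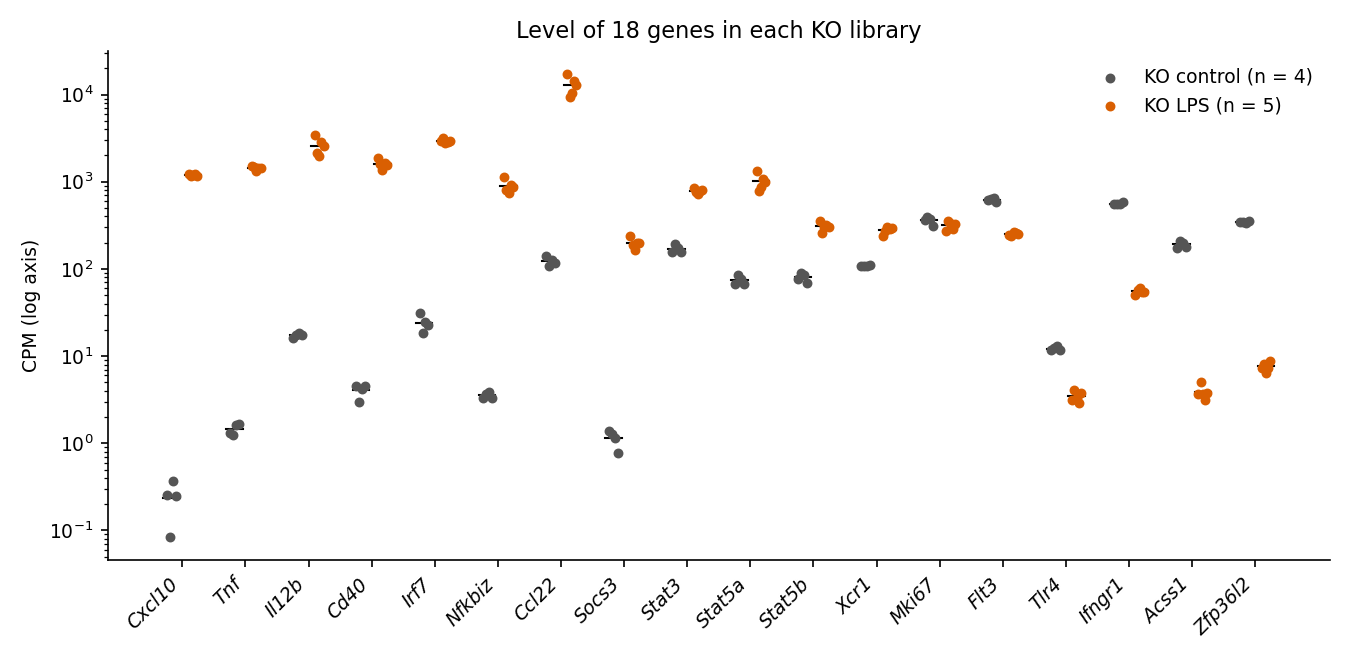
Level of 18 named genes (x axis) in each KO library, in CPM on a log axis, with 4 control and 5 LPS points per gene and a bar at the mean. The groups are apart for every gene shown except Mki67, which overlaps. Of the genes whose groups are apart, Tlr4, Flt3, Ifngr1, Acss1 and Zfp36l2 are lower with LPS and the rest are higher.

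Genes of JAK-STAT signalling rose in 21 of 25 cases (median 1.30). Stat3 stood at 158, 191, 175 and 158 CPM in control and 837, 768, 719, 785 and 799 CPM with LPS (2.20 ± 0.08 on the log2 scale, edgeR adjusted p = 2.9e-15). Stat5a went from 66.8, 85.6, 77.6 and 66.7 CPM to 1320, 786, 871, 1088 and 998 CPM (3.77 ± 0.20, adjusted p = 5.7e-13). Stat5b went from 76.8, 88.7, 84.8 and 69.4 CPM to 350, 261, 302, 322 and 306 CPM (1.95 ± 0.11). All 3 transcripts were present in every KO library and rose without overlap between groups. Counts summed over a gene do not show whether a part of it is missing, so these levels do not tell which gene was deleted. The kinase Jak2 rose by 2.73 ± 0.12, the kinase Pim1, a target of STAT factors, by 5.17 ± 0.12 and the interleukin-10 receptor chain Il10ra by 3.00 ± 0.12. The receptor subunits for GM-CSF rose (Csf2ra 0.75, Csf2rb 1.30), and the rise of Csf2ra is within the shift between scalings. Other receptors fell. Ifngr1, which binds interferon gamma, went from 557, 558, 555 and 581 CPM to 49.7, 57.9, 60.1, 54.6 and 54.3 CPM (-3.35 ± 0.09), the interleukin-6 receptor Il6ra fell by 2.17, and Flt3, the receptor of the culture's own growth factor, by 1.31.

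Genes that define cDC1 moved in both directions, more of them down. Xcr1, on which the cells were selected, stood at 109, 108, 109 and 110 CPM in control and 240, 273, 306, 289 and 295 CPM with LPS (1.37 ± 0.07 on the log2 scale, edgeR adjusted p = 1.1e-13). The other defining markers were present in both conditions. Clec9a, a receptor for dead cells, had means of 273 and 357 CPM (0.39 ± 0.06, within the shift between scalings), Irf8, the lineage regulator, 2006 and 1569 CPM (-0.35 ± 0.07), and the adhesion molecule Cadm1 155 CPM in both (0.00 ± 0.07, not called). The endosomal receptors fell, namely Tlr3 (-2.16 ± 0.09), Tlr11 (-2.60 ± 0.11) and Tlr12 (-2.83 ± 0.16), as did the integrin chain Itgae, known as CD103 (-2.55 ± 0.12). Cd8a rose from 0.282, 0.225, 0.337 and 0.523 CPM to 52.3, 54.1, 41.4, 53 and 50 CPM (7.18 ± 0.23), and the endocytic receptor Ly75, known as DEC-205, by 3.43 ± 0.12. Wdfy4, needed for cross-presentation, was not called (-0.13 ± 0.09), and control replicate 4 lay below the other controls at 2597 CPM. Without that library the fold change was -0.23 (adjusted p = 0.0036). In all 8 of 25 rose and 14 fell (median -0.80), and with total-count scaling 4 rose.

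Enzymes with immune roles rose strongly where they changed, 13 of 18 tested against 2 that fell (median 3.14). Acod1, which makes itaconate, stood at 0.0845, 0.0281, 0.0561 and 0.0275 CPM in control and 104, 185, 81.5, 92.4 and 120 CPM with LPS (11.09 ± 0.52 on the log2 scale). Ptgs2, the inducible cyclooxygenase, rose from a mean of 0.098 to 14.6 CPM (7.16 ± 0.40), and Ido1, which degrades tryptophan, from 2.06 to 29.8 CPM (3.86 ± 0.33). Alox5ap, which serves leukotriene synthesis, fell from a mean of 471 to 77.9 CPM (-2.60 ± 0.10). The list therefore held enzymes at very different levels, and its summed TPM, which follows the most abundant members, was 1442 in control and 955 with LPS.

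Genes of the cholesterol pathway rose together, 18 of 21, with a median of 2.34. Hmgcs1, which makes HMG-CoA, stood at 151, 121, 137 and 151 CPM in control and 1717, 1739, 1765, 1777 and 1688 CPM with LPS (3.63 ± 0.08 on the log2 scale, edgeR adjusted p = 1.3e-18). Idi1, an isomerase of the pathway, rose by 3.30 ± 0.07 and Fdft1, which makes squalene, by 2.97 ± 0.08. Srebf2, the regulator of the pathway, had a smaller log2 rise of 0.69 ± 0.06, which is within the shift between scalings. Dhcr7, which catalyses the last step of cholesterol synthesis, fell by 0.98 ± 0.19 and Srebf1 by 0.27 ± 0.11. These were the 2 members that fell, and 1 fell when KO control replicate 1 or KO LPS replicate 2 was left out, or the 5 libraries near an average of others.

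Glycolytic and respiratory genes changed by less, and their direction rests on the scaling. With TMM 14 of 21 genes of glycolysis and hypoxia rose and 3 fell (median 0.46), and with total-count scaling 4 rose and 12 fell. Pfkp, a phosphofructokinase, rose most (2.17 ± 0.09), followed by the regulator Pfkfb3 (1.77 ± 0.23) and Hif1a (1.62 ± 0.06). Egln3, an oxygen sensor, fell from 15.2, 34.2, 25.2 and 22.1 CPM to 1.89, 2.28, 3.01, 2.71 and 1.7 CPM (-3.38 ± 0.30). These 4 changes exceed the shift between scalings. Gapdh was 0.60 with TMM and -0.18 with total counts. For oxidative phosphorylation 18 of 24 rose and 5 fell (median 0.53), against 2 and 16 with total counts, and Atp5b, a subunit of ATP synthase, went from 0.65 to -0.13. Cycs, which encodes cytochrome c, rose most (1.54 ± 0.06), and Idh3a fell most (-0.90 ± 0.08). Without the 5 libraries near an average of others, 3 members fell.

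Cell cycle genes fell, 27 of 32, with a median of -1.37 and a summed TPM that went from 1867 ± 44.0 (SD, n = 4) to 513 ± 49.6 (n = 5). E2f2, a transcription factor of S-phase entry, fell from 85.9, 92.9, 89.6 and 87.4 CPM to 2.92, 5.54, 5.48, 4.96 and 6.16 CPM (-4.15 ± 0.16 on the log2 scale, edgeR adjusted p = 2.7e-15). E2f1 fell by 3.15 ± 0.13, and the 6 subunits of the replicative helicase fell by 1.75 (Mcm3) to 2.67 (Mcm7). The mitotic genes were less uniform. Cdc20 fell by 1.94 ± 0.22, while Mki67 (-0.19 ± 0.12), Cdk1 (-0.16 ± 0.13) and Ccnb1 (-0.34 ± 0.19) were not called, and the kinetochore motor Cenpe rose by 1.11 ± 0.11. Mki67 was called lower with total-count scaling (-0.97) and with a block by title number (-0.18, adjusted p = 0.019).

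Survival genes rose in 20 of 25 cases (median 1.51), and regulators of opposite function were among them. Bcl2l1, which encodes the protective BCL-XL, rose from a mean of 11.3 to 456 CPM (5.34 ± 0.21 on the log2 scale), and Bcl2l11, which encodes the killer protein BIM, from 22.4 to 708 CPM (4.98 ± 0.24). Casp4, the sensor of cytosolic LPS, rose from 0.31, 0.309, 0.365 and 0.22 CPM to 109, 112, 80.9, 86.3 and 92.9 CPM (8.30 ± 0.23). Mcl1, another protective member, rose by 1.92 ± 0.06, while Bcl2 was not called (0.07 ± 0.08). Bad, Bmf and Ripk3 fell by 1.20, 1.08 and 0.94.

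Lysosomal genes rose in 12 of 22 cases and fell in 5 (median 0.25), and with total-count scaling 7 rose and 13 fell. Lamp2, a membrane protein, rose most (2.39 ± 0.09), next to Npc2, which carries cholesterol (2.35 ± 0.09). Its partner Npc1 fell by 0.82, and the endocytic adaptor Dab2 by 2.53. The regulator Tfeb fell by 1.38 ± 0.10.

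Ribosomal protein genes changed little with TMM, with 8 rising, 8 falling and 14 not called of 30 (median -0.04). The highest and lowest were Rps24 (0.39 ± 0.06) and Rpl37 (-0.43 ± 0.07). Rplp0, a protein of the ribosomal stalk, rose by 0.24 ± 0.05. Rps24 and Rplp0 turned to -0.40 and -0.54 with total-count scaling, under which all 30 fell. In TPM, which has a fixed total, their sum went from 93715 ± 2531 (SD, n = 4) to 60076 ± 1825 (n = 5). Without the 5 libraries near an average of others, 4 rose and 5 fell, and 4 rose without KO control replicate 1 and 5 without KO control replicate 3 or KO LPS replicate 4.

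**Figure D4:**
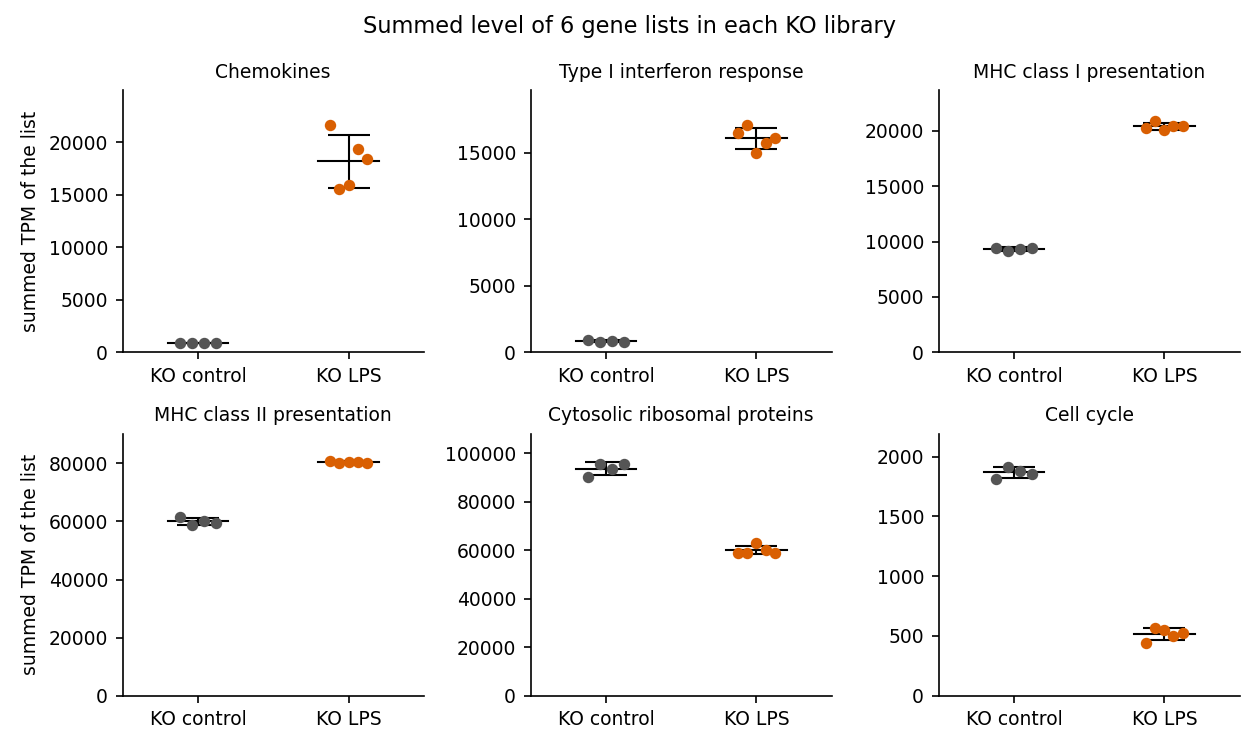
Summed TPM (y axis, from 0) of 6 gene lists in each KO control and KO LPS library, one point per library, with the mean and SD. The sums of chemokines, interferon-response genes and both MHC classes are higher in every LPS library, and those of ribosomal and cell cycle genes are lower in every LPS library.

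Markers of other cell types were measured for the same libraries. Of 12 neutrophil markers 8 were below the filter and the other four were not called, and their summed level was 6.02 to 22.4 TPM in control and 5.45 to 18.8 TPM with LPS. Lymphocyte markers summed to 3.01 to 4.08 and 4.30 to 4.86 TPM, with Ncr1 at 0 in every KO library, and erythroid and platelet markers to 18.8 to 22.7 and 14.7 to 22.4 TPM, with Alas2 at 0. Mast cell and basophil markers were 94.6 to 114 TPM and 49.4 to 57.4 TPM. These sums were all small beside the 8319 to 8846 TPM (control) and 6162 to 7164 TPM (LPS) of the cDC1 list. In control, markers of monocytes and macrophages had the largest of the other sums, and with LPS 4 of 5 libraries had a larger plasmacytoid sum. Among the monocyte and macrophage markers Lyz2, a lysozyme, had means of 1314 and 1036 CPM and Apoe 469 and 670 CPM, and Ccr2, which guides monocytes, fell from 495 to 59.5 CPM (-3.06 ± 0.12 on the log2 scale). Of the 8 tested cDC2 markers 3 rose and 4 fell, and the lectin Cd209a went from a mean of 7.17 to 0.0397 CPM (-7.33 ± 0.31). The sum of plasmacytoid markers was 196 to 243 TPM in control and 3081 to 3557 TPM with LPS, and it contains Irf7 and Bst2, which are also on the interferon list. Of the 8 tested plasmacytoid markers 4 rose and 3 fell. Siglech, which defines plasmacytoid cells, fell from a mean of 3.57 to 1.18 CPM. Besides Irf7 and Bst2, Tcf4 rose from 30.4 to 175 CPM and Pacsin1 from 2.36 to 7.17 CPM. In WT, neutrophil markers summed to 266 TPM in control replicate 4 and to 555 TPM in LPS replicate 5. The other WT libraries had 7.92 to 13.0 TPM in control and 7.81 to 14.5 TPM with LPS. In each of the 4 groups the highest neutrophil sum lay in a library numbered 17 to 20, and no label names a batch. These WT libraries are part of the comparison between genotypes. The part of any of these cell types in the results was not tested.

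Replicates lay close together in both conditions. Over 5015 genes at 20 CPM or more in both KO groups, the median SD of log2 CPM was 0.0752 in control and 0.0758 with LPS. These spreads include the libraries near an average of others, and are understated if those are not independent. The genes that varied most between LPS libraries included heat shock genes. Hspa1a, an HSP70 chaperone, stood at 73.5, 136, 264, 165 and 159 CPM in LPS replicates 1 to 5, and its near copy Hspa1b at 53.6, 95.8, 194, 117 and 113 CPM. The cationic amino acid transporter Slc7a2 stood at 22.1, 50.9, 21.6, 23.9 and 33 CPM, Slfn8 at 155, 328, 112, 118 and 199 CPM, and Macc1 at 54.1, 49.2, 20.5, 38.3 and 37.2 CPM. Replicate 3 was the highest for the chaperones and replicate 2 for Slc7a2 and Slfn8, so these genes did not share an order. Every LPS value of the 5 genes still lay above every control value.

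The KO response was set beside that of WT cells to see where it differs. In WT, 10246 genes (85.5%) were called. Of the genes called in both genotypes 9678 had the same direction and 21 the opposite direction, and the comparisons share no control library. The difference itself, the KO fold change minus the WT fold change, was called for 458 genes (3.82%), with 124 positive (1.03%) and 334 negative (2.79%). At least 2-fold were 3 (0.025%) and 47 (0.392%). The share that was positive was 27.1% with TMM, 42.9% with the size factors of DESeq2 and 47.0% by DESeq2 itself (813 genes called), so the balance of signs depends on the scaling. Of the 458 genes, 186 fell in both genotypes and further in KO, 93 rose in both and further in KO, and 67 rose in both and less in KO. Another 14 fell in KO and rose in WT, and 5 did the reverse. These counts depended on the libraries. Without the 5 libraries near an average of others 24 were called (2 positive and 22 negative), all among the 458, and 1318 had an unadjusted p under 0.05. Without WT LPS replicate 2, which stood apart from the other WT LPS libraries, 1501 were called (536 and 965), and without KO control replicate 3 or 4, KO LPS replicate 1, 4 or 5, or WT control replicate 3 or 4, left out in turn, the number was 208 to 305.

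Gpr146, an orphan receptor, had the most negative difference among called genes at 20 CPM or more in some group, predicted genes and pseudogenes left out. It stood at 37.5, 39.3, 37.5 and 34.5 CPM in KO control and 3.07, 3.56, 3.95, 2.71 and 3.26 CPM in KO LPS (-3.49 ± 0.12 on the log2 scale), and its WT means were 34.0 and 12.5 CPM (-1.44). The difference was -2.05 ± 0.16 (edgeR adjusted p = 1.5e-07). Olfm1, a secreted olfactomedin, differed by -1.83 ± 0.14 and Ptger2, a receptor for prostaglandin E2, by -1.51 ± 0.14, and both fell in each genotype. Flot1, a membrane scaffold protein, fell in KO, from 20.1, 19.6, 20.8 and 21.4 CPM to 8.7, 9.1, 10.6, 8.07 and 8.42 CPM, while its WT means were 22.4 and 26.8 CPM (difference -1.44 ± 0.11). Zdhhc23, a palmitoyltransferase, fell in KO by 1.16 with a WT value of 0.24 (difference -1.40 ± 0.15). On the positive side, the homeobox gene Zfhx2 rose by 1.93 ± 0.11 in KO and 0.86 in WT (difference 1.07 ± 0.15), and Zc3h12c, an RNA-decay factor, by 4.58 and 3.86 (0.72 ± 0.11). The differences of Gpr146, Olfm1, Ptger2, Flot1, Zdhhc23, Marchf1 (-1.12), Zfp36l2 (-0.59) and Zfhx2 were also called without the 5 libraries near an average of others. Of 25 named differences 8 kept their call in that way and 17 did not, among them Sema6b (-1.62), Adora3 (-1.45), Ifi44 (-1.32), Irf7 (-1.19) and Zc3h12c.

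Called differences within the lists were mostly negative with TMM, and their balance of signs is subject to the scaling as over all genes, of which 3.82% were called and 2.79% were negative. Of 30 interferon-response genes 8 had a called difference, all negative, from -0.81 (Xaf1) to -1.32 (Ifi44). The summed TPM of this list in control was 827 ± 88.9 (SD) in KO and 658 ± 34.4 in WT. With LPS it was 16067 ± 778 in KO and 14626 ± 2229 in WT, so the mean sum with LPS was not lower in KO. The LPS libraries spanned 14987 to 17071 TPM in KO and 13066 to 18365 TPM in WT. This sum follows the most abundant members and does not give the level of each of the 8 genes. For Irf7 the KO rise of 6.91 stood against 8.11 in WT. Its level with LPS was 2925 CPM in KO and 2623 CPM in WT on average, while its control level was 24.3 CPM in KO and 9.51 CPM in WT, so the smaller fold came with a higher starting level. In the cDC1 list 7 of 25 genes had a negative difference, with Naaa (-1.09), a lysosomal amidase, and Gcsam (-1.06) the largest. In MHC class II these were Marchf1, Ifi30 (-0.91), a thiol reductase, and H2-DMa (-0.40). For ribosomal proteins 11 of 30 had a negative difference, from -0.25 (Rpl4) to -0.39 (Rpl37). Without the 5 libraries near an average of others, no interferon-response or ribosomal gene had a called difference by edgeR, and 1 cDC1 and 1 class II gene did. Without WT LPS replicate 2, 12 interferon-response, 13 cDC1 and 21 ribosomal genes had a negative difference. Neither Stat3 (-0.33 ± 0.11, adjusted p = 0.10), Stat5a (0.48 ± 0.25, adjusted p = 0.31) nor Il12b (0.85 ± 0.32, adjusted p = 0.15) had a called difference of the response.

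**Figure D5:**
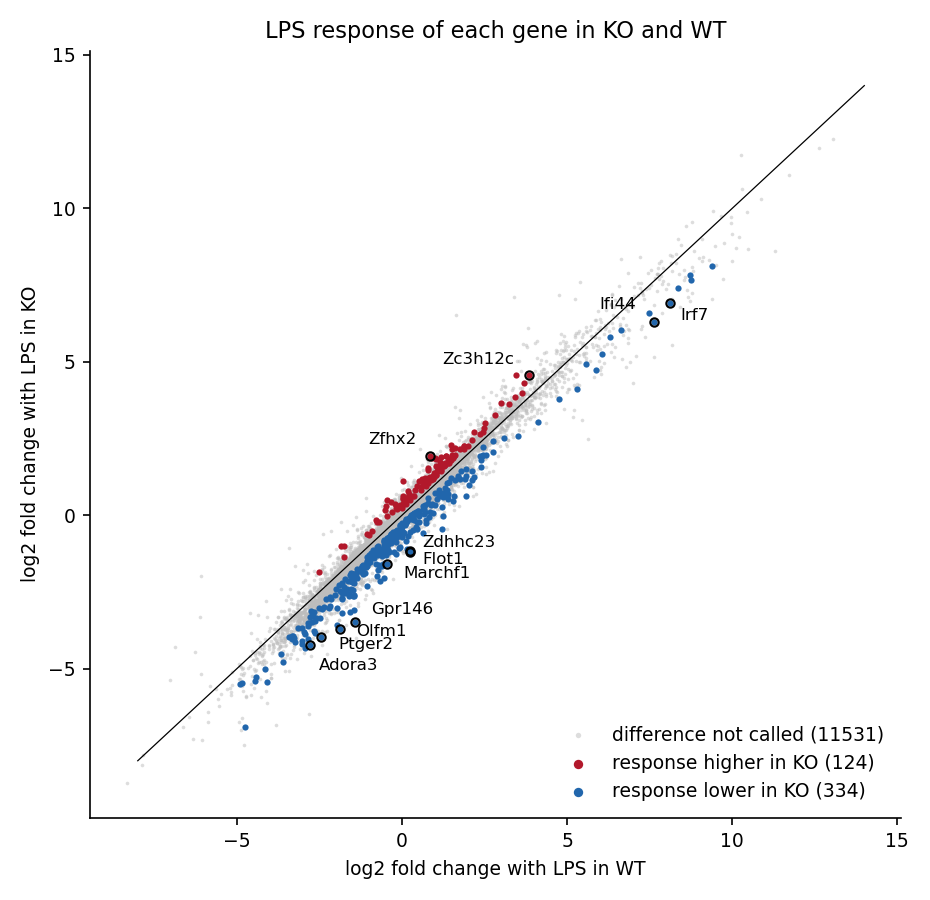
Log2 fold change with LPS in WT (x axis) and in KO (y axis) for 11989 genes, with the line of equal response. Genes with a called difference (124 higher and 334 lower in KO) are coloured, and Gpr146 and Olfm1 lie farthest below the line among those named.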

How the data were processed

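RNA was measured in 18 libraries of XCR1-enriched mouse dendritic cells, read as pairs of 150 bases on the DNBSEQ platform, per the labels' protocols. HISAT and Bowtie2 with build GRCm39 are named in the submitters' processing notes, but no version, annotation or counting software is stated. The table the authors deposited gives 3 values for each gene and library, which per the file headers are an estimated count, an FPKM and a TPM value. The estimated counts were deposited without normalization, and 6.37% of them differ from a whole number by over 0.001. The deposited TPM values are scaled by length to the same total in every library and were used only for levels between genes and summed levels. The deposited FPKM values, scaled by length and library total, were not used.

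Estimated counts were rounded, and genes were kept by the edgeR filter (minimum count 10, minimum total 15). Totals were 25590104 to 27375189. One quasi-likelihood model (edgeR 4.0.16, R 4.3.3, TMM scaling) was fitted to all 18 libraries with 4 group means, so groups share an estimate of spread (common biological coefficient of variation 0.0934). Its contrasts were LPS against control in KO, the same in WT, and their difference. Calls are at a Benjamini-Hochberg adjusted p under 0.05 over all tested genes. CPM values use the TMM factors, and SE is the standard error of the log2 fold change. On simulated counts for the KO comparison (11786 genes), changes of log2 1 in either direction were called in 94.1 and 100% of cases. Changes of log2 0.5 were called in 90.9% upward and in 84.8% downward, and 0.069% of unchanged genes were called. In this simulation 11586 genes were unchanged, and the changed genes, all above a minimum mean count, were split about evenly between directions. The same spread was set for every gene. The simulation therefore does not test the scaling where most genes change, as in these data.

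Named genes are the 8 highest and 8 lowest fold changes at 20 CPM or more without overlap and with at least 20 counts in the lower group, the 5 highest among genes with at most 3 control counts, the 8 most abundant per condition, the extremes and the most abundant member of each list, the 8 most positive and 8 most negative differences from WT, the 5 genes that varied most in KO LPS, and 9 genes taken whatever their values. Predicted genes, Riken clones, LOC names, pseudogenes and mitochondrially encoded genes were left out of these rankings. Other list members are examples chosen after their values were seen. Some list members are counted but not reported here by name. The members and lists were chosen with earlier results of these data known. Promoters came from RefSeq (GRCm38.p6), and no genome of build GRCm39 was used. Alternatives were DESeq2 1.42.0, limma-voom 3.58.1, other scalings, no filter, KO libraries alone, replicate blocks and leaving out each library. Leaving out the libraries near an average of others was chosen after seeing the data.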

Additional observations from a re-analysis of the deposited data

Results flagged for a closer look

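Some named genes had a library far from the others of its group, judged by its gap to the nearest library relative to the range of the group. In 8 cases this gap was above the critical value of Dixon's test, which chance alone passes in about 1 in 20 groups. As 235 groups were tested, about 12 would pass by chance if the groups were independent. The groups share the same libraries, so the count of 8 cannot be judged against that number. KO control replicate 4 gave 6 of these 8, with Cd74 at 11037 CPM, Ifngr1 at 581 CPM, Lamp2 at 89.0 CPM, Nlrc5 at 59.2 CPM, Tmsb4x at 6010 CPM and Wdfy4 at 2597 CPM. Nlrc5 and Wdfy4 were low there and the other four were high. KO control replicate 3 was low for Pim1 at 28.5 CPM, and KO LPS replicate 3 was low for Rsad2 at 1280 CPM.

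The response differed between KO and WT by the edgeR test of the difference for 25 named genes. Values are KO minus WT on the log2 scale. Positive differences were found for Zfhx2 (1.07), Nfatc2ip (0.95), Myb (0.80), Tspoap1 (0.80), Sh3pxd2a (0.75), Fndc5 (0.74), Pdcd4 (0.73), Zc3h12c (0.72), Cenpe (0.59) and Hmgcs1 (0.38). Negative differences were found for Gpr146 (-2.05), Olfm1 (-1.83), Sema6b (-1.62), Ptger2 (-1.51), Adora3 (-1.45), Flot1 (-1.44), Zdhhc23 (-1.40), Ifi44 (-1.32), Irf7 (-1.19), Marchf1 (-1.12), Zfp36l2 (-0.59), Alox5ap (-0.57), Bad (-0.46), Rpl37 (-0.39) and Rpl23a (-0.31). Of the 25 differences 17 kept their call in all 18 fits that left out 1 library. The other calls were lost in 15 of these fits for Myb, 13 for Pdcd4, 13 for Rpl23a, 12 for Rpl37, 9 for Hmgcs1, 8 for Cenpe, 4 for Bad and 3 for Alox5ap. With limma-voom the calls of Ifi44 and Myb were lost. Pdcd4 rose in KO with TMM (0.42, turning to -0.37 with total-count scaling) while its WT value was -0.32. Its KO call was lost without the 5 libraries near an average of others (0.39, adjusted p = 0.063).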

How the results depend on the processing

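The number of genes called in KO changed little, from 9730 (without the 5 libraries near an average of others) to 10926 (no filter) over all alternatives, and from 10185 to 10488 with single libraries left out. Total-count scaling moved the directions: higher 2416, lower 8437, at least 2-fold higher 1324 and lower 5540. Members that rose became 9 for LPS sensing, 4 for cDC1 identity, 4 for glycolysis, 2 for oxidative phosphorylation, 7 for the lysosome and 0 for ribosomal proteins. Members that fell became 4 for NF-kB, 8 for immediate early genes, 1 each for cytokines, chemokines and MHC class I, 9 for MHC class II, 4 for metabolic enzymes, 12 for glycolysis, 16 for oxidative phosphorylation, 4 for cholesterol, 13 for the lysosome, 6 for survival and 30 for ribosomal proteins. Single genes reversed there, to -0.13 (Atp5b), -0.67 (Ccl6), -0.72 (Eef1a1), -0.22 (Erap1), -0.18 (Gapdh), -0.37 (Pdcd4), -0.68 (Rpl23a), -0.54 (Rplp0), -0.40 (Rps24) and -0.42 (Tgfb1).

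The difference from WT was the less stable result. DESeq2 called 813 genes (382 positive). Leaving out single libraries gave 208 to 1501 genes (positive 44 to 536, negative 164 to 965), and leaving out the 5 libraries near an average of others gave 24 (2 positive, 22 negative). DESeq2 and its size factors gave 3 oxidative phosphorylation genes that fell, 1 for cholesterol, and 13 ribosomal genes that rose with 5 that fell. Without the 5 libraries these were 3, 1, 4 and 5. Without the filter 5 ribosomal genes rose, and in KO libraries alone 5 MHC class II genes fell. Leave-one-out ranges were 3 to 6 for MHC class II genes that fell, 1 to 2 for cholesterol genes that fell and 4 to 10 for ribosomal genes that rose. The causes were not tested.

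Replicate numbers were not taken to pair the samples, since not every pair correlated over 0.1. In KO, deviations of control and LPS libraries with the same title number correlated at 0.111, -0.109, 0.008 and 0.025, and those in sets by library number at 0.111, 0.136, -0.030 and -0.031. In WT, pairs in these sets correlated at 0.273, 0.191, 0.14 and 0.252, and the 6 pairs of the third set over both genotypes at 0.136 to 0.353, which is a hint from the data, not from the design. The replicate block by title number left 3 oxidative phosphorylation genes that fell. The replicate block by library number gave 882 differences (250 positive, 632 negative), 5 MHC class II and 5 glycolysis genes that fell. Depth limits the values of genes with few control counts, whose intervals are wide.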
